A study of Mus musculus with 12 samples.

Results

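The genes described here are 6 Kruppel-like factors, Klf2, Klf4, Klf6, Klf9, Klf10 and Klf15, of 32285 genes counted in single-nucleus RNA-seq of mouse liver. They were chosen by name, as members of the family with known roles in endothelial cells or hepatocytes, when earlier results of these data were known. All 6 were found and all passed the minimum count in both cell types. The samples came from 8 wild-type male mice of 10 to 12 weeks, whose strain is given as C57BL6J in the labels and as C57BL/6NTac in the methods of the study. Each mouse gave 3 samples, so that there were 8 of each of 3 types. Liver was a piece of lobe tied off and snap-frozen after the liver had been perfused with buffer from a 42 °C supply, Cell Suspension was the pellet left after collagenase digestion and 50 g spins, and Primary Hepatocytes were that suspension after 24 h on collagen. The culture medium held 1 µM dexamethasone, 1 nM insulin and 0.5% fetal bovine serum, which Liver and Cell Suspension had not been cultured in. The plating medium, in which the suspension had been taken up as well, held more serum than this, and the cultured cells were released with trypsin before they were frozen. A change between Cell Suspension and Primary Hepatocytes therefore covers plating, time, the change of serum, hormones and the trypsin harvest together, and these cannot be told apart.

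Kruppel-like factors are zinc-finger proteins that bind GC-rich and CACCC sequences in promoters. KLF2 and KLF4 are raised in endothelial cells by laminar flow, through a kinase route that ends on MEF2 factors, and keep the endothelium quiescent. KLF6 is an early response gene of injured liver, KLF9 is a direct target of the glucocorticoid receptor, KLF10 is an early target of TGF-beta and of glucose, and KLF15 drives amino acid breakdown and gluconeogenesis in hepatocytes.

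The nuclei used were 42467 hepatocyte and 5435 endothelial nuclei of 53467 in all, and 337 barcodes occurred in more than 1 of the 6 sequencing pools. The sums per sample held between 2065229 and 29018248 UMIs for hepatocyte nuclei and between 95289 and 2578536 for endothelial nuclei. The smallest endothelial sum was that of Primary Hepatocytes mouse 7, with 29 nuclei. Endothelial marker levels went with the names in both classes. The summed level of 10 endothelial markers in endothelial nuclei was 11546 to 15522 CPM in Liver and 5408 to 8973 CPM in Primary Hepatocytes. In hepatocyte nuclei it was 31.8 to 50.3 CPM in Liver and 78.5 to 147 CPM in Primary Hepatocytes. The summed level of 8 hepatocyte markers separated the classes in Liver but not in Primary Hepatocytes. There it was 2785 to 6957 CPM in hepatocyte nuclei and 1385 to 4543 CPM in endothelial nuclei. In Liver and Cell Suspension the endothelial nuclei came mainly from clusters that the authors had named endothelial. In Primary Hepatocytes 1733 of 1809 came from a cluster whose deposited name says only that its cells were cultured, and the other 76 from the clusters with the authors' endothelial name. The endothelial clusters led by Rspo3 and by Adgrg6, both with Vwf among their leading genes, gave 269 and 221 of the 2474 Liver nuclei. They gave 24 and 34 of the 1152 Cell Suspension nuclei and 0 and 1 of the Primary Hepatocytes nuclei. The mix of endothelial clusters thus differed between the sample types, and its part in the endothelial changes was not tested. The cultured cluster was read here as endothelial from the same 10 markers, so their level in Primary Hepatocytes is no check of that name. The study likewise describes endothelial cells in its cultures. Levels are given as normalised CPM, which is counts of UMIs over 1000000 UMIs of the sum after scaling by TMM factors, unless plain CPM is named.

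RNA of hepatocyte markers was present in endothelial nuclei, and relative to hepatocyte nuclei its level was highest in Primary Hepatocytes. The 8 hepatocyte markers, among them Alb and Apob, were above 0 in every endothelial sum. Their summed level in endothelial nuclei was 1999 to 4207 CPM for Liver, 1752 to 5645 CPM for Cell Suspension and 1385 to 4543 CPM for Primary Hepatocytes. None of the 8 rose between any pair of sample types in endothelial nuclei, and 2 fell from Cell Suspension to Primary Hepatocytes. Each marker was also taken as a percent of its level in the hepatocyte nuclei of the same sample. The middle value over the 8 markers had a median over samples of 25.8% for Liver (17.4 to 33.2), 26.7% for Cell Suspension (14.4 to 50.7) and 66.5% for Primary Hepatocytes (44.7 to 172). In hepatocyte nuclei the summed level of the same markers had a median of 13024 CPM in Liver and 4213 CPM in Primary Hepatocytes. Endothelial results for the members that hepatocytes hold more of are therefore given beside a second fit, in which the hepatocyte profile of the same sample was subtracted at that percent, with values below 0 set to 0. In Primary Hepatocytes mice 3, 4 and 8 the percent was 172%, 102% and 105%. More than the whole hepatocyte profile was thus subtracted in these samples. Every change to Primary Hepatocytes after subtraction carries that limit and is no measure of the share of hepatocyte RNA.

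The level of each member in each cell type differed most for Klf2 and Klf4. In Liver, plain CPM of Klf2 averaged 41.0 ± 30.6 (SD, n = 8) in leukocyte, 34.6 ± 23.6 in biliary, 23.0 ± 12.1 in Kupffer, 21.7 ± 6.11 in endothelial, 2.53 ± 3.73 in stellate and 0.344 ± 0.161 in hepatocyte nuclei. The first 4 lay within each other's spread, and stellate and hepatocyte nuclei were below them. Klf4 was highest in biliary nuclei at 23.5 ± 18.9 CPM, followed by endothelial nuclei at 7.96 ± 2.59 CPM, with 2.05 ± 2.35 CPM in Kupffer and 0.203 ± 0.0746 CPM in hepatocyte nuclei. Klf6 was also highest in biliary nuclei (78.7 ± 37.1 CPM) and lowest in hepatocyte nuclei (5.52 ± 2.99 CPM), with endothelial nuclei at 21.0 ± 10.7 CPM. Klf9, Klf10 and Klf15 were highest in hepatocyte nuclei. Klf9 was at 233 ± 30.4 CPM there, at 178 ± 60.5 CPM in stellate and at 131 ± 17.0 CPM in endothelial nuclei, and the first pair lay within their spread. Klf10 was at 80.1 ± 46.7 CPM in hepatocyte nuclei and at 42.6 ± 16.1 CPM in Kupffer nuclei, which also lay within their spread. Klf15 was at 165 ± 62.7 CPM in hepatocyte nuclei and at 51.6 ± 31.7 CPM in leukocyte nuclei. Biliary and leukocyte values rest on 220 and 365 nuclei in all, and no test was made between cell types because the clusters were formed on the same counts. Of the 220 nuclei that the authors named biliary, 157 came from a cluster whose leading genes include the mesothelial marker Gpm6a. The other 63 came from a cluster led by Spp1, with Krt19 among its leading genes. The biliary values are therefore mainly those of mesothelial-like nuclei, and the clusters were not split here.

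**Figure D1:**
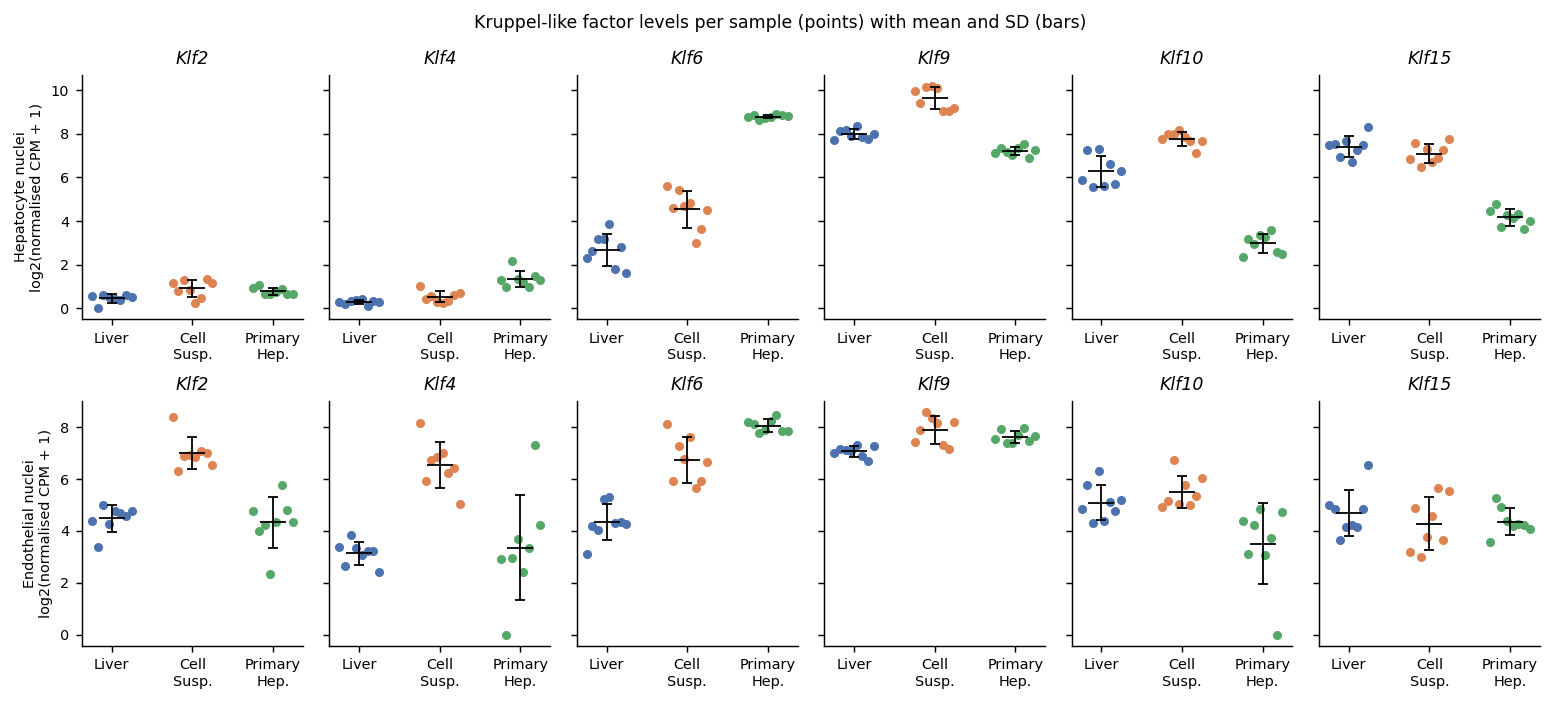
Level of the 6 members on the log2(normalised CPM + 1) scale in hepatocyte nuclei (top row) and endothelial nuclei (bottom row), with 1 point per sample, the 3 sample types on the x axis, and the mean and SD as bars. In hepatocyte nuclei Klf6 climbs to 443 in Primary Hepatocytes while Klf10 and Klf15 drop to 7.18 and 17.6, and in endothelial nuclei Klf2 and Klf4 peak in Cell Suspension at 141 and 111.

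Klf2 and Klf4 are described first, as the members with their main known role in endothelium. Their promoters are shown because the flow route to them ends on MEF2 factors. The stretches before the RefSeq start sites (GRCm38.p6) are Klf2 at chr8:72318812-72319032 on the plus strand, 221 bases, and Klf4 at chr4:55532476-55532725 on the minus strand, 250 bases. Capitals mark matches to GGGCGG on either strand and, in Klf2, a MEF2 site.
Klf2: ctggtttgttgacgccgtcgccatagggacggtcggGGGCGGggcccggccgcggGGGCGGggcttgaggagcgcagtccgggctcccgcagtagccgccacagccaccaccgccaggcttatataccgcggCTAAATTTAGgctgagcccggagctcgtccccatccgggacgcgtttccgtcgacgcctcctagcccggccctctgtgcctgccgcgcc
Klf4: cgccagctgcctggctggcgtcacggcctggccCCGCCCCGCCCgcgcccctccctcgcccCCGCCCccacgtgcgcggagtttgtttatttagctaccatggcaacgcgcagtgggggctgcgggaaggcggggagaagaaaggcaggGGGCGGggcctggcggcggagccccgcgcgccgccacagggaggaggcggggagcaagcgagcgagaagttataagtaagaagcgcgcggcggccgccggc
The Klf2 stretch held 1 MEF2 site, 79 bases before the start, a motif that 0.423% of 32851 promoters of the same length held. It also held 2 matches to GGGCGG, which 28.7% of promoters held. The Klf4 stretch held 4 matches to GGGCGG, of which one pair shares letters, where 32.7% of promoters held at least 1, and no MEF2 site. Neither held CACCC, which 47.97% and 52.0% of promoters of these lengths held. Of the other motifs searched on both strands, the TATA box TATAAA, the CCAAT box, the E-box CACGTG, the CREB motif TGACG, the glucocorticoid receptor motif AGAACA and the CArG box, TGACG occurred once in each (15.0% and 17.8% of promoters) and CACGTG once in Klf4 (6.02%). A match is a description of letters and no measure of binding.

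Klf2 was higher in the endothelial nuclei of Cell Suspension than of Liver in all 8 mice and was not called as different between Liver and Primary Hepatocytes. The gene lies at chr8:72319033-72321656 (GRCm38, plus strand, 3 exons). In endothelial nuclei its lowest, median and highest normalised CPM were 9.31, 24.1 and 31.3 for Liver, 77.8, 120 and 337 for Cell Suspension and 3.99, 19.4 and 53.3 for Primary Hepatocytes. Every Cell Suspension sample was above every sample of the other types, and Liver and Primary Hepatocytes overlapped. The highest value was that of Cell Suspension mouse 1, with the next at 135. The change from Liver to Cell Suspension was 2.65 on the log2 scale (SE 0.26, 6.28-fold, adjusted p = 7.31e-10 by edgeR's quasi-likelihood test). From Cell Suspension to Primary Hepatocytes Klf2 fell 5.90-fold (log2 -2.56, SE 0.29, adjusted p = 3.65e-09), again in all 8 mice. The rise was 1.98 on spliced and 4.18 on unspliced UMIs, and the fall was -4.25 on unspliced UMIs and -1.70 after subtraction, all called. The unspliced changes rest on few UMIs. Klf2 was 97.8% ± 3.42 spliced in Liver, and 94.3% to 100% in the Primary Hepatocytes samples with at least 10 UMIs. Liver and Primary Hepatocytes differed by 0.09 (95% interval -0.52 to 0.70, adjusted p = 0.856).

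Endothelial Klf4 had the largest change of the members from Liver to Cell Suspension. The gene lies at chr4:55527143-55532466 (minus strand, 5 exons), and the protein is a partner of KLF2 in the endothelium. Its lowest, median and highest normalised CPM in endothelial nuclei were 4.33, 8.33 and 13.4 for Liver, 32.1, 95.7 and 287 for Cell Suspension and 0, 7.94 and 161 for Primary Hepatocytes. Liver and Cell Suspension did not overlap, while 1 Primary Hepatocytes sample stood far above the others. The sample at 0 held no Klf4 UMI, which allows up to 27.3 plain CPM (3 counts, for counting error only). Klf4 rose 13.4-fold from Liver to Cell Suspension (log2 3.75, SE 0.41, adjusted p = 8.82e-09, all 8 mice) and fell 7.86-fold from there to Primary Hepatocytes (log2 -2.97, SE 0.45, adjusted p = 1.39e-06, 7 of 8 mice). Without mouse 7 that fall was -3.84 and without mouse 1 it was -2.37, and both were called. It was -4.63 in the cultured cluster alone, -2.18 with DESeq2 and -1.94 after subtraction. The rise was 4.52 on unspliced UMIs, and these too were called. The difference between Liver and Primary Hepatocytes, 0.77 (95% interval -0.29 to 1.84), was not called at an adjusted p of 0.287. With DESeq2 it was 1.68 (adjusted p = 0.0314) and after subtraction, with edgeR, 1.75 (adjusted p = 0.0259), both called. The 0.77 rested on Primary Hepatocytes mouse 7, where 18 Klf4 UMIs in 29 nuclei gave 161 and the next sample was at 17.6. Without mouse 7 the difference was -0.04. In that sample all 18 UMIs lay in the 17 nuclei with the authors' endothelial name. Over all Primary Hepatocytes samples those nuclei had 74.8 plain CPM of Klf4, from 32 UMIs, against 4.76 CPM in the cultured cluster, from 14 UMIs. Without mouse 7 the first value was 37.4 CPM. For Klf2 the values were 58.4 and 21.8 CPM, from 25 and 64 UMIs, and the first was 28.0 CPM without mouse 6, which held 14 of the 25 UMIs. The study names assignment to the wrong sample type as one possible source of nuclei that look uncultured in its cultures, which was not tested here.

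The share of endothelial nuclei with a UMI was also highest in Cell Suspension, after every nucleus had been thinned to 1000 UMIs. For Klf2 it was 2.52% ± 0.978 for Liver, 12.8% ± 5.49 for Cell Suspension and 1.89% ± 1.31 for Primary Hepatocytes (SD, n = 8 each). The rise and the fall both had an adjusted p of 0.0003996 by a two-sided exact permutation test over 36 tests, and the unadjusted p of 0.0001554 is the smallest that 8 against 8 samples can give. For Klf4 the thinned share was 0.569%, 9.87% and 2.34%, with adjusted p = 0.00112 for the rise and 0.0306 for the fall by the same exact test. The cultured share of Klf4 was 13.8% in mouse 7, from 4 of 29 nuclei, and 0% to 1.47% in the others. The fall was not called without mouse 1, 2, 3, 4, 5 or 6 (adjusted exact p between 0.0601 and 0.0877). Without thinning the shares of Klf2 were 6.55%, 21.5% and 3.86%, and those of Klf4 were 2.36%, 14.3% and 3.53%. Thinning left out 6.55% of the endothelial nuclei for Liver, 31.3% for Cell Suspension and 26.6% for Primary Hepatocytes. The thinned shares in hepatocyte nuclei were between 0.0413% and 0.121% for Klf2 and between 0.0345% and 0.249% for Klf4. The median of the samples' median UMIs per nucleus was 5730 for hepatocyte and 2151 for endothelial nuclei.

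In hepatocyte nuclei Klf2 and Klf4 were near the counting limit. Klf2 averaged 0.381 ± 0.177 normalised CPM for Liver, 0.940 ± 0.508 for Cell Suspension and 0.725 ± 0.199 for Primary Hepatocytes, from 52, 47 and 108 UMIs in all. Liver mouse 2 held none, which allows up to 0.437 plain CPM. Its rises from Liver, 1.10 to Cell Suspension (SE 0.34, adjusted p = 0.0205) and 0.84 to Primary Hepatocytes (SE 0.30, adjusted p = 0.0196), were lost with the pool as a covariate (adjusted p = 0.117 and 0.361), on spliced UMIs (0.174 and 0.106), on unspliced UMIs (0.437 and 0.724) and after thinning of the sums (0.219 and 0.0892). The first was also lost without mouse 1, 3 or 8 (adjusted p = 0.0673, 0.0536 and 0.0599). Klf2 in hepatocyte nuclei was at a median of 1.56%, 0.664% and 3.87% of its endothelial level in the 3 types, and the middle value over the endothelial markers was 0.310%, 0.537% and 1.11% of theirs. Of those 10 markers 5 rose in hepatocyte nuclei from Liver to Cell Suspension and none fell, and 4 rose and 2 fell from Liver to Primary Hepatocytes. Their summed level in hepatocyte nuclei had a median of 41.9 CPM for Liver, 60.4 for Cell Suspension and 88.8 for Primary Hepatocytes. The part of this RNA in the Klf2 rises was not tested apart from the subtraction, under which the first rise became -0.59 and the second 0.65, neither called. Klf4 in hepatocyte nuclei rose 6.55-fold from Liver to Primary Hepatocytes (log2 2.71, SE 0.32, adjusted p = 1.47e-08), from 0.225 ± 0.0885 to 1.62 ± 0.827 normalised CPM. All 8 Primary Hepatocytes samples were above all Liver samples, and the highest, mouse 3, was at 3.54. After subtraction of the endothelial profile this rise was 2.72 and called.

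Genes upstream of KLF2 and KLF4 fell in part between Liver and Primary Hepatocytes. Of 11 genes of the flow route, 1 fell and none rose in endothelial nuclei from Liver to Cell Suspension, and from Liver to Primary Hepatocytes 7 fell and none rose, with a median log2 change of -0.56 against -0.01 for all genes tested. Of all genes 3.91% and 33.8% were called in these comparisons. The list holds genes that drive the route and genes that restrain it, so these counts give no direction for the route. Heg1, a junctional receptor that restrains the route, was the one that fell at the first step, from 780 ± 124 to 495 ± 80.4 normalised CPM (adjusted p = 0.00844). Mef2c, which encodes a transcription factor at the end of the route, fell from 478 ± 39.8 in Liver to 100.0 ± 74.4 in Primary Hepatocytes (log2 -2.49, SE 0.24). Piezo1, a mechanosensitive channel, fell from 137 ± 23.8 to 44.7 ± 26.8 (log2 -1.75, SE 0.20), and the kinase genes Map3k3 and Map2k5 fell by 0.75 and 0.61 on the log2 scale.

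Targets of the pair were mixed. Of 6 endothelial genes that KLF2 and KLF4 raise, only S1pr1 rose from Liver to Cell Suspension, from 27.5 ± 8.34 to 61.4 ± 30.4 normalised CPM (adjusted p = 0.00235). From Liver to Primary Hepatocytes 2 rose and 4 fell, with a median of -1.20 on the log2 scale, where 33.8% of all genes were called and their median was -0.01. S1pr1, a receptor for sphingosine 1-phosphate, and Thbd, which encodes thrombomodulin, rose by 2.66 and 1.55. The water channel gene Aqp1 and the lipid phosphatase gene Plpp3 fell by 2.16 and 1.92 on that scale. Of 3 genes that the factors lower, 2 rose from Liver to Primary Hepatocytes and none fell. Angpt2, a vessel-destabilising ligand, went from 5.41 ± 2.49 to 39.2 ± 22.5 normalised CPM (log2 3.01, SE 0.31), and the vasoconstrictor gene Edn1 from 19.4 ± 11.95 to 38.7 ± 25.3 (log2 1.04, SE 0.33).

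Klf6 was low in Liver hepatocyte nuclei, rose in Cell Suspension and became the member with the largest rise in culture. Its promoter is shown because it holds CCAAT, which the promoters of the former pair lack. It covers chr13:5861239-5861481 on the plus strand (GRCm38.p6, 243 bases), and capitals mark CCAAT and GGGCGG on either strand.
Klf6: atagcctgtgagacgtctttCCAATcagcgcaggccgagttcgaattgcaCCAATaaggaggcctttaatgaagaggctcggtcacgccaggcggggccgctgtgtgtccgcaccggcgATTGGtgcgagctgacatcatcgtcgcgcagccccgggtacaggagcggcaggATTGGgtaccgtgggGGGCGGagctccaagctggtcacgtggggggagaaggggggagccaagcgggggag
The stretch held 4 matches to CCAAT, where 33.3% of promoters held at least 1, and neither promoter of the pair above held any. It held 1 match each to GGGCGG (31.8% of promoters) and CACGTG (5.79%), and none of the other motifs. The Klf9 and Klf15 promoters, which are not shown, held 3 and 1 matches to CCAAT (33.8% of promoters). This motif is therefore not particular to Klf6. Neither of those promoters held AGAACA (16.1%). The Klf6 gene follows at chr13:5861482-5870394 (4 exons).

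In hepatocyte nuclei the lowest, median and highest normalised CPM of Klf6 were 2.05, 5.61 and 13.5 for Liver, 6.98, 24.0 and 47.4 for Cell Suspension and 396, 446 and 473 for Primary Hepatocytes. Liver and Cell Suspension overlapped, and the lowest cultured sample was more than 8 times above the highest suspension sample. Klf6 rose 4.13-fold from Liver to Cell Suspension (log2 2.05, SE 0.31, adjusted p = 9.75e-06) and 17.1-fold from there to Primary Hepatocytes (log2 4.09, SE 0.33, adjusted p = 4.54e-12), in all 8 mice each time. From Liver to Primary Hepatocytes the rise was 70.5-fold (log2 6.14, SE 0.36, adjusted p = 3.24e-15). With the pool as a covariate the first rise was smaller, 1.19 on the log2 scale (adjusted p = 0.00121), and that from Liver to Primary Hepatocytes was 5.00. After thinning to 1000 UMIs, 0.706% ± 0.389 of hepatocyte nuclei held a Klf6 UMI for Liver, 2.34% ± 1.58 for Cell Suspension and 41.2% ± 3.18 for Primary Hepatocytes. Without thinning the shares were 5.28%, 9.26% and 86.3%. The thinned share in culture was above that of Liver with adjusted p = 0.0003996 (exact permutation test). In endothelial nuclei the thinned share was 2.26%, 11.3% and 20.4%. No background share was measured for Klf6, since every cell type held its UMIs and barcodes outside nuclei were not used here.

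Endothelial Klf6 also rose at the first step. Its lowest, median and highest normalised CPM were 7.75, 18.7 and 38.4 for Liver, 49.3, 105 and 280 for Cell Suspension and 220, 260 and 358 for Primary Hepatocytes. Cell Suspension was above Liver without overlap (log2 2.60, SE 0.28, 6.05-fold, adjusted p = 5.75e-09). The rise was 1.83 with the pool as a covariate and 1.86 on spliced UMIs, and called each time. The further rise to Primary Hepatocytes was 1.04 (SE 0.24, adjusted p = 0.00117), with overlap. It was 0.04 on unspliced UMIs alone. The rise from Liver to Primary Hepatocytes was 3.64, and 2.56 with the pool. In culture endothelial Klf6 was at a median of 49.2% of the hepatocyte level (43.3 to 57.1), below the 66.5% of the hepatocyte markers. In 7 of the 8 cultured samples it lay below the percent that was subtracted, so that the subtraction set these values to 0 by its construction and gives no direction for Klf6 in culture. Of the endothelial nuclei in culture, those with the authors' endothelial name held 290 plain CPM of Klf6, and the cultured cluster held 297 CPM.

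**Figure D2:**
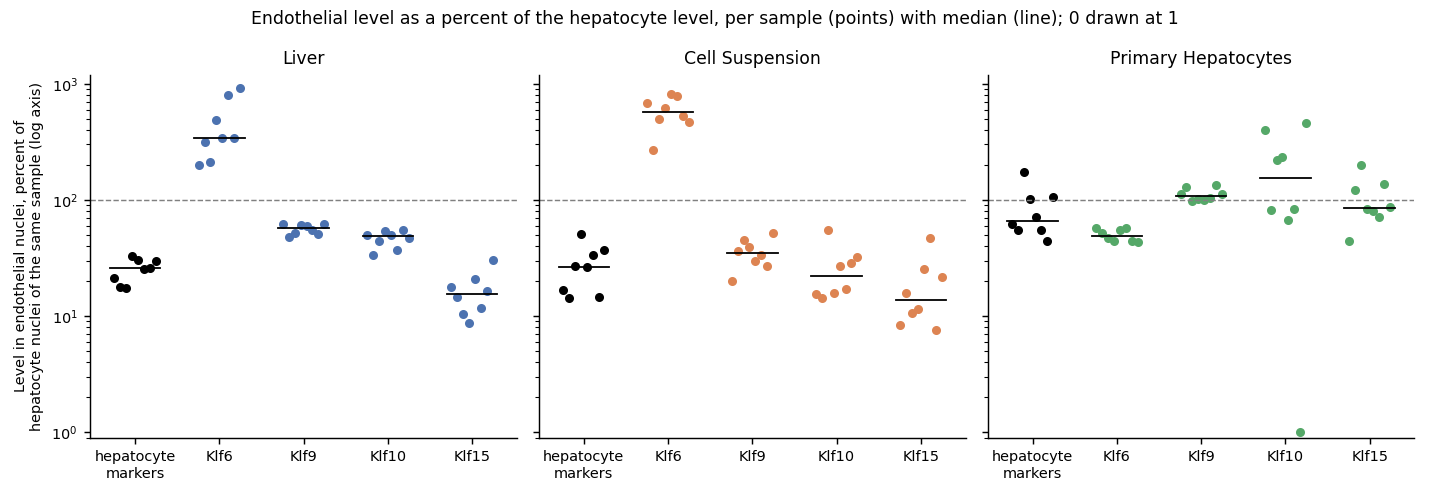
Level in endothelial nuclei as a percent of the level in hepatocyte nuclei of the same sample, on a log axis, for the hepatocyte markers (the middle value over 8) and for Klf6, Klf9, Klf10 and Klf15, with 1 point per sample, the median as a line and values of 0 drawn at 1. The marker median is 25.8% for Liver, 26.7% for Cell Suspension and 66.5% for Primary Hepatocytes, where Klf6 lies below it and Klf9, Klf10 and Klf15 lie above it.

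Klf9 rose in the hepatocyte nuclei of every mouse during isolation and fell below its Liver level in culture. It lies at chr19:23141226-23168134 (2 exons) and overlaps the microRNA gene Mir1192 on the same strand, whose reads could not be told apart from it. The lowest, median and highest normalised CPM were 209, 249 and 322 for Liver, 529, 842 and 1184 for Cell Suspension and 117, 146 and 183 for Primary Hepatocytes, so that the 3 types did not overlap on this scale. In plain CPM Liver (199 to 285, mean 233) and Primary Hepatocytes (157 to 234, mean 197) overlapped. From Liver to Cell Suspension Klf9 rose 3.31-fold (log2 1.73, SE 0.17, adjusted p = 5.46e-09), and from there to Primary Hepatocytes it fell 5.71-fold (log2 -2.51, SE 0.17, adjusted p = 1.87e-13). Primary Hepatocytes were 1.72-fold below Liver (log2 -0.79, SE 0.17, adjusted p = 0.000148). On spliced UMIs the rise was 1.07 and the fall -1.62, both called. The thinned share of nuclei with a Klf9 UMI was 19.5%, 41.7% and 17.6%, and the difference between Liver and Primary Hepatocytes was not called (adjusted p = 0.136, exact permutation test). Without thinning it was 68.7%, 73.4% and 61.6%, and in endothelial nuclei the thinned share was 11.5%, 17.1% and 18.9%.

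Endothelial Klf9 rose by less at the first step (difference -0.97 on the log2 scale, adjusted p = 0.000107). Its lowest, median and highest normalised CPM were 105, 137 and 159 for Liver, 144, 262 and 386 for Cell Suspension and 166, 195 and 253 for Primary Hepatocytes. The rise to Cell Suspension was 1.82-fold (log2 0.87, SE 0.16, adjusted p = 0.000538) and that from Liver to Primary Hepatocytes was 1.49-fold (log2 0.57, SE 0.16, adjusted p = 0.00517). Both were lost with the pool as a covariate (adjusted p = 0.122 and 0.581), on spliced UMIs alone (0.29 and 0.51, adjusted p = 0.607 and 0.0801) and after subtraction, which gave -0.32 and 0.45. The second was also lost on unspliced UMIs (adjusted p = 0.0538). Klf9 in endothelial nuclei was at a median of 57.1% of the hepatocyte level for Liver, 35.1% for Cell Suspension and 108% for Primary Hepatocytes.

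Genes of the glucocorticoid route moved in both directions. In hepatocyte nuclei, of the receptor gene Nr3c1 and 6 classic targets, 2 rose and none fell from Liver to Cell Suspension, 2 rose and 2 fell from Cell Suspension to Primary Hepatocytes, and 5 rose and 2 fell from Liver to Primary Hepatocytes (median log2 1.18 against 0.04 for all genes). In these comparisons 21.5%, 51.6% and 54.1% of all genes were called. Dusp1, a phosphatase gene that is also an early response gene, rose at the first step from 43.0 ± 14.5 to 102 ± 16.4 normalised CPM. The cochaperone gene Fkbp5 rose from 104 ± 56.2 in Cell Suspension to 259 ± 107 in Primary Hepatocytes (log2 1.32, SE 0.36). Nr3c1 fell in the same step from 464 ± 93.3 to 256 ± 40.7, and Tsc22d3, which encodes the glucocorticoid-induced leucine zipper protein, from 146 ± 132 to 42.05 ± 10.8. In endothelial nuclei 5 of the 7 rose and 1 fell from Liver to Primary Hepatocytes (33.8% of all genes called), led by the transcription factor gene Zbtb16, from 116 ± 88.3 to 1254 ± 449.

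Klf10 rose in hepatocyte nuclei during isolation and then had the largest fall of the members. It lies at chr15:38291463-38300706 (minus strand, 4 exons). The lowest, median and highest normalised CPM were 46.1, 67.5 and 157 for Liver, 139, 224 and 284 for Cell Suspension and 4.18, 7.43 and 10.9 for Primary Hepatocytes. The first 2 types overlapped, and the cultured samples were all far below both. Klf10 rose 2.62-fold at the first step (log2 1.39, SE 0.24, adjusted p = 7.10e-05) and fell 31.2-fold at the second (log2 -4.96, SE 0.29, adjusted p = 2.92e-15). Against Liver the cultured level was 11.9-fold lower (log2 -3.57, SE 0.27, adjusted p = 9.95e-13). The thinned share of hepatocyte nuclei with a UMI was 7.46% ± 3.96, 14.3% ± 1.80 and 1.10% ± 0.409, and 37.2%, 41.0% and 5.13% without thinning. In endothelial nuclei the thinned share was 3.06%, 3.47% and 1.56%.

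In endothelial nuclei Klf10 averaged 36.9 ± 20.3 normalised CPM in Liver and 48.8 ± 25.9 in Cell Suspension, a difference of 0.40 (95% interval -0.18 to 0.98, adjusted p = 0.533). It fell to 14.8 ± 9.66 in Primary Hepatocytes (log2 -1.54 from Cell Suspension, SE 0.36, adjusted p = 0.00125, and -1.14 from Liver, SE 0.33, adjusted p = 0.00596). On spliced UMIs the fall from Liver was -2.27, and on unspliced UMIs it was not called (adjusted p = 0.0887). After subtraction these falls became 1.16 and 0.04, neither called. The subtraction had set 6 of the 8 Cell Suspension values to 0, so the 1.16 gives no direction. The fall from Liver was also lost with the pool as a covariate (adjusted p = 0.102). The cultured value rests on 53 UMIs, with none in mouse 7, where up to 31.5 plain CPM is allowed. Of 7 genes of the TGF-beta route, 3 fell and 1 rose in endothelial nuclei from Liver to Primary Hepatocytes, and 3 fell and 2 rose in hepatocyte nuclei, where 33.8% and 54.1% of all genes were called. None was called from Liver to Cell Suspension in either cell type, where the medians were -0.07 and 0.09.

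Klf15 was the one member whose hepatocyte level was not called as changed between Liver and Cell Suspension and fell in culture. It lies at chr6:90462576-90475238 (4 exons). Its lowest, median and highest normalised CPM in hepatocyte nuclei were 102, 177 and 317 for Liver, 88.8, 134 and 214 for Cell Suspension and 11.5, 17.6 and 26.9 for Primary Hepatocytes. Liver and Cell Suspension overlapped widely, at a difference of -0.34 (95% interval -0.74 to 0.06, adjusted p = 0.271). On spliced UMIs alone that difference was -0.56 and called (adjusted p = 0.0374). From Cell Suspension to Primary Hepatocytes Klf15 fell 8.02-fold (log2 -3.00, SE 0.22, adjusted p = 6.63e-13) and from Liver 10.1-fold (log2 -3.34, SE 0.22, adjusted p = 5.92e-14), in all 8 mice. The thinned share of nuclei with a UMI was 14.3%, 11.4% and 2.38%, and 61.0%, 37.5% and 13.6% without thinning, beside a thinned share of 2.44%, 2.00% and 2.22% in endothelial nuclei. In endothelial nuclei Klf15 was at 30.3 ± 26.3, 23.3 ± 16.7 and 20.9 ± 8.58 normalised CPM in the 3 types and was called in no comparison (adjusted p = 0.575, 0.867 and 0.186). Its endothelial level had a median of 15.6%, 13.7% and 85.9% of the hepatocyte level in the same samples, against 25.8%, 26.7% and 66.5% for the hepatocyte markers. After subtraction the endothelial differences were 2.14, 2.11 and 4.25 in the 3 comparisons, the last called (adjusted p = 0.000333) and opposite in sign to the -0.64 of the counts as deposited. The subtraction had set 7 of the 8 Liver and 6 of the 8 Cell Suspension values of Klf15 to 0, so these differences give no direction either.

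The hepatocyte level of Klf15 in Liver went with that in Cell Suspension of the same mouse. Over the 8 mice Pearson's r was 0.85 (exact permutation p = 0.00501, adjusted p = 0.0200 over 4 relations) and Spearman's rho was 0.88 (exact permutation p = 0.00724, adjusted p = 0.0290). Without the 2 mice farthest from the Liver median r was 0.80. Over 8722 genes the hepatocyte deviations of Liver and Cell Suspension correlated within every mouse (r of 0.35 to 0.85, median 0.67). The relation over mice was not computed for all genes, so it does not set Klf15 apart from genes outside the members. The relation over mice was not found for Klf6 (r = 0.37), Klf9 (r = 0.38) or Klf10 (r = 0.45, and -0.13 without the 2 farthest), with adjusted exact p = 0.366 for each. Samples of one mouse lay in different pools for some mice and in the same pool for others, and the relation was not computed within pools because no pool holds enough mice.

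Most genes of a list tied to KLF15 fell in culture, and some had risen before. Of 6 such genes, 3 rose and none fell in hepatocyte nuclei from Liver to Cell Suspension. From Cell Suspension to Primary Hepatocytes 5 fell and none rose, with a median log2 change of -4.29 against 0.01 for all genes. The shares of all genes called were 21.5% and 51.6%. Pck1, which encodes the gluconeogenic enzyme PEPCK, went from 1345 ± 467 normalised CPM in Liver to 3813 ± 660 in Cell Suspension and 32.6 ± 9.15 in Primary Hepatocytes. The tyrosine aminotransferase gene Tat went from 1152 ± 622 to 2308 ± 1033 and 58.5 ± 20.3. Bcat2, which encodes an aminotransferase of branched-chain amino acids, was at 67.8 ± 13.9, 69.5 ± 15.9 and 2.58 ± 0.446. Prodh, the first enzyme gene of proline breakdown, fell from 174 ± 77.8 in Cell Suspension to 12.2 ± 1.40 in Primary Hepatocytes. In endothelial nuclei 4 of the 5 tested genes of the list fell in that step and none rose (median log2 -1.77). There 20.0% of all genes were called, and Klf15 itself was not called. Hepatocyte RNA was not taken out of this endothelial count.

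**Figure D3:**
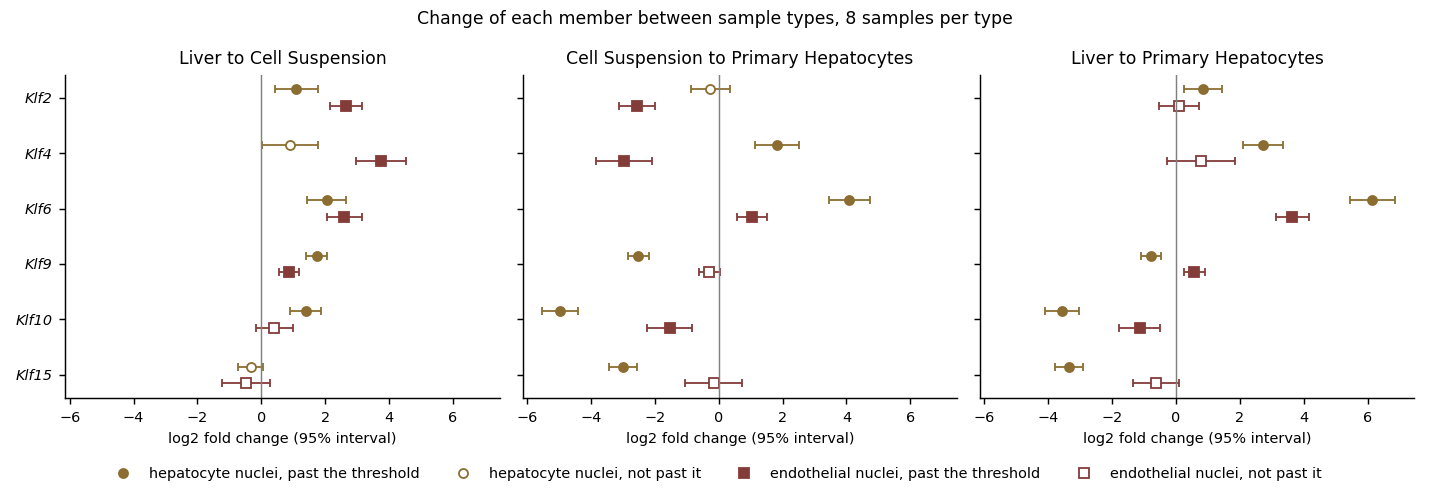
Log2 fold change of each member between sample types in hepatocyte and endothelial nuclei, with bars for 95% intervals and a filled point where edgeR's adjusted p was under 0.05. Klf2 and Klf4 move furthest in endothelial nuclei at the first step (2.65 and 3.75), and Klf10 and Klf6 move furthest in hepatocyte nuclei in culture (-4.96 and 4.09).

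Counted over the members, hepatocyte nuclei had 4 of 6 called from Liver to Cell Suspension, where 21.5% of 26521 genes were called. From Cell Suspension to Primary Hepatocytes 5 of 6 were called against 51.6% of genes, and from Liver to Primary Hepatocytes 6 of 6 against 54.1%. With over 50% of all genes called in culture, these last counts do not set the members apart. In endothelial nuclei 4 of 6 were called from Liver to Cell Suspension, Klf2, Klf4, Klf6 and Klf9, where 3.91% of 18279 genes were called. Between Cell Suspension and Primary Hepatocytes it was 4 of 6 against 20.0%, and from Liver to Primary Hepatocytes 3 of 6 against 33.8%. The call for endothelial Klf9 from Liver to Cell Suspension was lost with the pool as a covariate, on spliced UMIs and after subtraction. The members were chosen with earlier results of these data known. All counts of called members, here and below, are therefore a description.

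The change of the members differed between the cell types, by a test of the difference itself with 1 coefficient per sample. From Liver to Cell Suspension the endothelial change exceeded the hepatocyte change by 1.38 for Klf2 (SE 0.41, adjusted p = 0.0391) and by 2.78 for Klf4 (SE 0.59, adjusted p = 0.000807) on the log2 scale. It fell short of it by 0.97 for Klf9 (adjusted p = 0.000107) and 1.19 for Klf10 (adjusted p = 0.00101). The differences for Klf6, 0.39 (95% interval -0.10 to 0.88), and Klf15, -0.18 (-0.77 to 0.42), were not called. That made 4 of 6, where 2.81% of 26796 genes were called. The call for Klf2 was lost without mouse 1, 4, 5 or 7 (adjusted p = 0.249, 0.0559, 0.0574 and 0.0577), on spliced UMIs alone (0.109) and on unspliced UMIs alone (0.255). Those for Klf4 on unspliced UMIs (0.247), Klf9 on spliced UMIs (0.198) and Klf10 with DESeq2 (0.112) were lost too. Without a coefficient per sample those for Klf2, Klf4 and Klf10 were lost (0.132, 0.0586 and 0.212). On unspliced UMIs alone the difference for Klf6 was 1.35 and became called (adjusted p = 0.0213). From Cell Suspension to Primary Hepatocytes all 6 differed, against 20.1% of genes. Klf2, Klf4 and Klf6 had the lower endothelial change, by -2.18, -4.62 and -2.84, and Klf9, Klf10 and Klf15 the higher, by 2.36, 3.55 and 3.08. The call for Klf2 was lost on unspliced UMIs (adjusted p = 0.104), and the difference for Klf4 was -5.63 without mouse 7. From Liver to Primary Hepatocytes 5 of 6 differed against 25.8% of genes, all but Klf2 (-0.80, adjusted p = 0.116). Klf2 was called under 5 alternatives: a stricter count filter, spliced UMIs alone, the cultured clusters alone, without mouse 6, and without Cell Suspension mouse 2 (adjusted p between 0.00591 and 0.0365). The difference for Klf4, -1.84, was -0.16 on unspliced UMIs and not called (adjusted p = 0.737), and -2.78 without mouse 7 and -3.72 with the cultured clusters alone. In these fits the median over all genes was -0.19, 0.30 and 0.11 in the 3 comparisons, smaller than the called differences. The hepatocyte RNA in endothelial nuclei described above was not taken out of them.

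Splicing of the members' UMIs in hepatocyte nuclei moved in different directions. Of 19 comparisons with enough UMIs, 10 or more per sample in at least 5 samples of each type, tested with a two-sided exact permutation test, 11 were called. The test was not run over all genes, so this count does not set the members apart. Klf9 had 28.9% ± 3.11 spliced UMIs for Liver, 24.1% ± 2.50 for Cell Suspension and 40.9% ± 3.60 for Primary Hepatocytes. It thus fell at the step at which its level rose (adjusted exact p = 0.00623) and rose at the step at which its level fell (adjusted exact p = 0.00148). Klf15 went from 29.4% ± 4.94 over 32.8% ± 2.13 to 43.1% ± 4.52, with a rise in culture (adjusted exact p = 0.00236). The share over all genes, which was not tested, was 19.5% ± 1.71 for Liver, 27.0% ± 3.08 for Cell Suspension and 28.6% ± 1.57 for Primary Hepatocytes. Klf6 was mostly spliced throughout, from 76.5% ± 4.48 in Liver to 82.9% ± 2.32 in Primary Hepatocytes (adjusted exact p = 0.00548). Klf10 fell from 65.4% ± 3.45 to 57.5% ± 7.30 from Liver to Primary Hepatocytes (adjusted exact p = 0.0268). That fall was not called with ambiguous UMIs counted as spliced (-4.14 percentage points, adjusted exact p = 0.108) or without mouse 1, 3, 6 or 7 (adjusted exact p between 0.0594 and 0.0858). In endothelial nuclei Klf2 fell from 97.8% ± 3.42 in Liver to 88.1% ± 8.96 in Cell Suspension over the 7 and 8 samples with enough UMIs (adjusted exact p = 0.00768). Klf6 rose there from 65.7% ± 12.4 in Cell Suspension to 83.5% ± 6.85 in Primary Hepatocytes (adjusted exact p = 0.00623). Endothelial Klf9 was at 34.3% ± 6.20, 34.6% ± 8.42 and 48.2% ± 5.47 in the 3 types and rose in culture (adjusted exact p = 0.00221), beside 18.0%, 25.8% and 31.4% over all genes. Hepatocyte RNA was not taken out of these endothelial shares. In culture endothelial Klf6 was at a median of 49.2% of the hepatocyte level, below the 66.5% of the hepatocyte markers. Its spliced share there lay beside 82.9% for hepatocyte Klf6, and that of Klf9 beside 40.9% for hepatocyte Klf9. The genes differ in length and exon number, and shares are compared only within a gene.

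**Figure D4:**
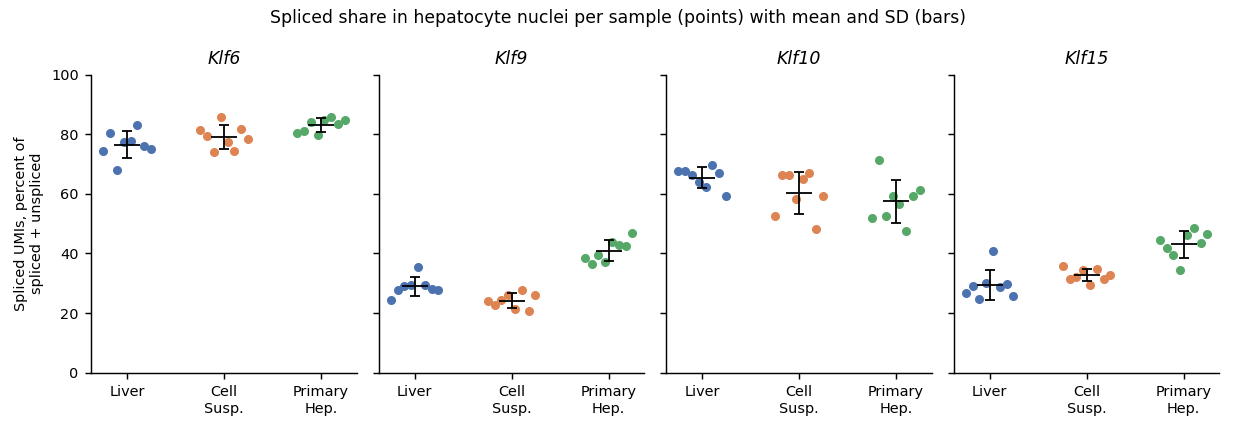
Spliced UMIs as a percent of spliced plus unspliced UMIs in hepatocyte nuclei for Klf6, Klf9, Klf10 and Klf15, with 1 point per sample by sample type and the mean and SD as bars. Klf9 lies lowest in Cell Suspension at 24.1% and highest in Primary Hepatocytes at 40.9%, and Klf6 stays between 76.5% and 82.9% on average.

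Every called change of a member kept its direction in each pool that held both types, except endothelial Klf10 from Liver to Primary Hepatocytes. Of the 6 pools, 4 held both types for each of the 2 steps and 2 held both Liver and Primary Hepatocytes. Endothelial Klf2, Klf4 and Klf6 were higher in Cell Suspension than in Liver in all 4 pools, by 2.18 to 2.93, 2.67 to 3.78 and 1.48 to 1.90 on the log2(CPM + 1) scale. Hepatocyte Klf6 was higher in Cell Suspension than in Liver in all 4 by 0.74 to 1.48, below the 2.05 of the fit over all samples. In culture it rose by 3.21 to 4.06 and Klf10 changed by -5.43 to -4.40 in all 4. Endothelial Klf10 was higher in 1 and lower in 1 of the 2 pools that held Liver and Primary Hepatocytes.

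The rest of the family was called in part. Of the 20 remaining Kruppel-like and Sp genes 19 were tested in hepatocyte nuclei, of which 3 rose and 4 fell from Liver to Cell Suspension, and 2 rose and 8 fell from Liver to Primary Hepatocytes. Of all genes tested 21.5% and 54.1% were called in these comparisons. The median log2 changes were -0.12 and -0.13, against 0.01 and 0.04 for all genes. Klf7 rose from 29.3 ± 2.98 in Liver to 109 ± 10.1 normalised CPM in Primary Hepatocytes (log2 1.90, SE 0.12), and Klf12, a repressor, fell from 1580 ± 232 to 418 ± 95.3 (log2 -1.92, SE 0.16). In endothelial nuclei 1 of 14 tested fell and none rose at the first step, where 3.91% of all genes were called. Of 11 cofactor genes, such as the Sin3 corepressors and the ubiquitin ligase gene Wwp1, 1 rose and 3 fell in hepatocyte nuclei from Liver to Cell Suspension and none was called in endothelial nuclei, beside the same 21.5% and 3.91% of all genes.

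Genes with the pattern most like that of a member were read from Pearson's r of log2(CPM + 1) over the 24 sums, which share their libraries and depth, as a description. For hepatocyte Klf6 these were Pkm, Cdkn1a and Ndrg1, with r of 0.99 each. For hepatocyte Klf9 they were Zfp36 (0.95), Nudt4 (0.95) and Socs3 (0.93), and for Klf15 Mpzl2 (0.98). In endothelial nuclei Fosb (0.87), Zfp36 (0.81) and Irf1 (0.81) were most like Klf2, and Irf1 (0.86), Nr4a1 (0.84) and Fosb (0.84) most like Klf4.

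In Kupffer and stellate nuclei the members other than Klf15 are given as plain CPM without a test. Klf6 in Kupffer nuclei averaged 45.0 ± 20.9 in Liver and 148 ± 83.4 in Cell Suspension, and in stellate nuclei 26.8 ± 11.1 in Liver, 45.2 ± 23.7 in the 7 Cell Suspension samples with enough nuclei and 234 ± 151 in Primary Hepatocytes. Klf2 in Kupffer nuclei averaged 23.0 ± 12.1 in Liver and 57.2 ± 39.8 in Cell Suspension. Klf9 averaged 178 ± 60.5 in Liver and 324 ± 115 in Cell Suspension in stellate nuclei, and 72.7 ± 13.9 and 143 ± 140 in Kupffer nuclei. For Klf10 the values were 32.2 ± 14.8 and 87.7 ± 105 in stellate nuclei, and 42.6 ± 16.1 and 65.6 ± 36.5 in Kupffer nuclei. Klf4 in stellate nuclei averaged 0.891 ± 1.40 in Liver and 21.5 ± 15.7 in Primary Hepatocytes, from 3 and 11 UMIs. These values rest on 139 to 919 nuclei per cell type and sample type, and hepatocyte RNA in these nuclei was not measured.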

How the data were processed

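Nuclei of 24 samples, 8 mice with 3 sample types each, had been hashtagged, sorted sample by sample, pooled by 4 and sequenced with a 10x 3′ kit. The authors deposited UMI counts per nucleus and gene, split into spliced, unspliced and ambiguous, made with bcl2fastq and Salmon alevin on GRCm38, along with hashtag calls, clusters and cell type names after removal of doublets with scDblFinder. The hashtag of Cell Suspension mouse 2 is spelled CD2 there and was read as CS2. No further doublet caller was run. The 3 counts were added and summed per sample over hepatocyte and over endothelial nuclei. Clusters that the deposited names give only as cultured cells, though the study describes hepatocytes, endothelial and stellate cells among them, were read from marker lists, and 1 without leading markers (2321 nuclei) was left out. Sums were tested with edgeR 4.0.16 (quasi-likelihood, TMM, at least 10 counts over all columns, Benjamini-Hochberg over all genes, threshold 0.05), with all 24 samples in 1 fit. Log2 differences between cell types came from 1 fit with a coefficient per sample. Shares of nuclei and of spliced UMIs were tested with exact permutations. DESeq2 1.42.0, RLE scaling, single splicing states, thinning, pool and mouse terms, subtraction of the other cell type's profile and leaving out each mouse were alternatives. No column of per-sample values was left unused.

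Samples with the same number came from the same mouse. The deviations of Liver and Cell Suspension from their means correlated within every mouse in hepatocyte nuclei (r of 0.35 to 0.85, median 0.67), and hardly in the other pairs of types (medians of 0.01 to 0.08). Named genes were the 6 members and, from fixed lists, up to 4 called genes per list and comparison with at least 5 CPM and the largest changes. The members and the lists were chosen with earlier results of these data known. Scripts were tested on simulated data. The standard error (SE) of a log2 change was derived from the test, as the absolute change over the square root of the quasi-likelihood F statistic. The 95% intervals are normal intervals from this SE and cover the spread between samples. Low UMI numbers limit Klf2 and Klf4 in hepatocyte nuclei and all members in the smallest endothelial sums.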

Additional observations from a re-analysis of the deposited data

Results flagged for a closer look

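Of 36 groups of 8 samples, 9 held a sample whose gap to the nearest other was large for the range of its group. For normal values chance gives such a gap in about 1 of 20 groups, a rate that was not checked for these CPM values. In hepatocyte nuclei these were Klf2 in Liver mouse 2 (0 normalised CPM), Klf4 in Primary Hepatocytes mouse 3 (3.54) and Klf15 in Liver mouse 8 (317). In endothelial nuclei Klf2 and Klf4 were both highest in Cell Suspension mouse 1 (337 and 287). The others there were Klf2 in Primary Hepatocytes mouse 6 (53.3), Klf4 in Primary Hepatocytes mouse 7 (161), Klf10 in Cell Suspension mouse 3 (105) and Klf15 in Liver mouse 8 (93.1). In the Liver sample of mouse 8 endothelial Klf15 was at 30.3% of the hepatocyte level in plain CPM, beside 29.9% for the hepatocyte markers. The part of hepatocyte RNA in that endothelial value was not tested.

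The change between sample types differed between endothelial and hepatocyte nuclei in 15 of 18 tests of the difference itself, given here as endothelial minus hepatocyte log2 change. Of all genes 2.81%, 20.1% and 25.8% differed in the 3 comparisons in order. From Liver to Cell Suspension it was 1.38 for Klf2, 2.78 for Klf4, -0.97 for Klf9 and -1.19 for Klf10, and the call for Klf2 was lost without mouse 1, 4, 5 or 7. From Cell Suspension to Primary Hepatocytes it was -2.18 for Klf2, -4.62 for Klf4, -2.84 for Klf6, 2.36 for Klf9, 3.55 for Klf10 and 3.08 for Klf15. From Liver to Primary Hepatocytes it was -1.84 for Klf4, -2.45 for Klf6, 1.38 for Klf9, 2.36 for Klf10 and 2.90 for Klf15. Hepatocyte markers in endothelial nuclei were at a median of 25.8%, 26.7% and 66.5% of their hepatocyte level in the 3 sample types, and their part in these differences was not tested.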

How the results depend on the processing

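Over 88 values and tests of the members, 1367 of 1474 recomputations kept direction and call, 63 lost a call, 10 gained one and 34 turned direction, mostly of values that were not called. In hepatocyte nuclei 3 to 4, 4 to 5 and 5 to 6 members were called over the alternatives in the 3 comparisons in order, in endothelial nuclei 3 to 4, 3 to 4 and 1 to 4, and for the difference between cell types 1 to 4, 5 to 6 and 4 to 6. The number moved by over 1.5 times in 2 comparisons: for endothelial nuclei from Liver to Primary Hepatocytes from 3 to 1 with the pool as a covariate and to 1 on unspliced UMIs, and for the difference from Liver to Cell Suspension from 4 to 2 on spliced UMIs and to 1 without a coefficient per sample. Without Cell Suspension mouse 2, a check added after the data were seen because of its hashtag's spelling, the difference for Klf2 from Liver to Primary Hepatocytes became called (adjusted p = 0.0365). Causes were not tested.

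Subtracting the other cell type's profile turned, in endothelial nuclei, Klf15 (2.14, 2.11 and 4.25 in the 3 comparisons in order, the last called), Klf10 (-1.12, 1.16 and 0.044), Klf9 (-0.32 at the first step and 0.77 at the second) and Klf6 (-4.65 at the second and -2.09 from Liver to Primary Hepatocytes, where the subtraction sets nearly all cultured values to 0 and gives no direction), and in hepatocyte nuclei Klf2 (-0.59 and 1.24 at the 2 steps) and Klf4 (-2.19 at the first). The values of Klf15, and those of Klf10 at the first and second step, rest on values set to 0 and give no direction either. The subtraction left endothelial Klf2, Klf4 and Klf6 from Liver to Cell Suspension at 2.60, 3.69 and 2.56, all called. On spliced UMIs alone Klf10 (-0.38 at the first step), Klf15 (0.40) and Klf9 (0.23, both at the second) and Klf2 (-0.45 from Liver to Primary Hepatocytes) turned in endothelial nuclei. Endothelial Klf2 from Liver to Primary Hepatocytes, 0.09 and not called, also turned on unspliced UMIs (-0.071), after thinning of the sums (-0.48), with only the cultured cluster (-0.19), with the pool (-0.66) and with the replicate block by mouse (-0.078), which changed no other direction and no call. With the pool Klf15 turned to 0.38 at the second step and 0.30 from Liver to Primary Hepatocytes, and after thinning to 0.32 at the second. Endothelial Klf4 from Liver to Primary Hepatocytes was -0.89 with only the cultured cluster, and DESeq2 put the difference between cell types for Klf15 at the first step at 0.0080.

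Leaving out each mouse gave ranges across 0 for endothelial Klf15 at the second step (-0.36 to 0.18) and from Liver to Primary Hepatocytes (-0.92 to 0.029), endothelial Klf4 (-0.044 to 1.14) and Klf2 (-0.29 to 0.27) from Liver to Primary Hepatocytes, and the difference between cell types for Klf15 at the first step (-0.36 to 0.056). None of these was called. Scaling shifted all genes: the hepatocyte median from Liver to Cell Suspension was 0.01 under TMM, 0.09 under RLE and 0.12 with DESeq2, with 2040 of 5698, 2632 of 5585 and 3038 of 6213 calls higher. In endothelial nuclei 371 of 715, 473 of 686 and 553 of 778 were higher. No member's call changed under RLE scaling.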

Other observations

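In Primary Hepatocytes the 76 nuclei with the authors' endothelial name and the 1733 of the cultured cluster read as endothelial held plain CPM of 189 and 217 for Klf9, 23.4 and 14.6 for Klf10, and 11.7 and 20.7 for Klf15. The first group rests on 81, 10 and 5 UMIs. Of its 10 Klf10 UMIs 6 lay in 1 nucleus of mouse 8, and without that mouse its value was 12.5 CPM, below that of the cultured cluster. Values of these nuclei without 1 mouse were chosen after the data were seen. No test was made between them, since the clusters were formed on these counts and 1 of the 8 samples had no nucleus in the first group.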
